A study of Homo sapiens with 9 samples.

Results

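DNAJC15 is a nuclear gene for a small J-domain protein of the inner mitochondrial membrane, and it was described here together with 6 genes of the mitochondrial import motor: DNAJC19, PAM16, TIMM44, TIMM23, HSPA9 and GRPEL1. The 7 genes were taken by symbol from a deposited table of 60829 rows, and each had 1 row. DNAJC15 was chosen by its normalized counts in the same control and knockout libraries that are compared here, so its levels are given as a description with no test. The other 6 were chosen for what their products do.

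The libraries are stranded total RNA, depleted of ribosomal RNA, of H1, a human embryonic stem cell line, kept in mTESR medium on vitronectin. The control clone (chrX-ctrl_H1, genotype label WT) gave 4 libraries, and the knockout clone (chrX-KO_H1, genotype label knock out), in which the element HERVHlin on chromosome X was knocked out, gave 5. HERVHlin belongs by its name to HERVH, a family of endogenous retroviruses transcribed in human pluripotent cells. Each group is 1 clone sampled over sequential passages, and the series design counts the passages as technical replicates, so p-values measure the spread between passages and cannot tell the knockout from any other difference between the 2 clones. The treatment label reads differentiated cells for all 9 libraries, although the medium is one for stem cells.

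Most mitochondrial proteins are made in the cytosol and carry a presequence that leads them through the TOM complex of the outer membrane and the TIM23 complex of the inner membrane. The last step is driven by a motor on the matrix side, in which HSPA9 (mortalin, the mitochondrial HSP70) binds the incoming chain and is tethered to the channel by TIMM44. J-domain proteins stimulate the ATPase of HSP70, GRPEL1 exchanges its nucleotide, and PAM16, a J-like protein without that stimulating activity, holds the J-domain protein at the channel. DNAJC15, also called MCJ, and DNAJC19 are paralogues that both resemble the yeast motor subunit Pam18. DNAJC15 is also known to interact with respiratory complex I and to lower its activity, and its promoter is known to be methylated in some tumours.

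DNAJC15 lies on chromosome 13 from 43023203 to 43114224 on the plus strand (GRCh38, GENCODE 29). DNAJC19 lies on chromosome 3 from 180983709 to 180989774 on the minus strand. Because the paralogues differ in the data, the stretch of 90 coding bases in which they are most alike is shown, 5′ to 3′, with the 17 bases that differ in capitals. It is coding sequence near the 3′ end of each reading frame, where both proteins carry the J domain.
DNAJC15: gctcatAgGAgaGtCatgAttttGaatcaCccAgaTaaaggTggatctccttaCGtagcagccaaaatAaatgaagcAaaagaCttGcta
DNAJC19: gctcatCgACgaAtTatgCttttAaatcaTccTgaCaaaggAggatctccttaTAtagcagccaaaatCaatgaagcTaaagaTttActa
In DNAJC15 the stretch is coding bases 343 to 432, split between exon 5 (chr13:43085799-43085838) and exon 6 (chr13:43107178-43107227). In DNAJC19 it is coding bases 241 to 330, in exon 5 (chr3:180985926-180985965) and exon 6 (chr3:180984661-180984710). Over 348 aligned coding bases the paralogues were 64.1% identical, and the longest run they shared exactly in their coding sequences was 13 bases.

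The likeness of the sequences bears on how well reads can be told apart, since kallisto, which the submitters' processing notes name, assigns reads by short exact words. Of 8012 words of 31 bases in the GENCODE 29 transcripts of DNAJC15, 0 occurred in a transcript of DNAJC19 or of any of the other 5 members, and 24 (0.30%) occurred in some other gene. The sources used here do not give the word length the authors set. The shared portion was larger for TIMM23, where 27.8% of words also occur in TIMM23B, and for PAM16, where 20.5% occur in the readthrough CORO7-PAM16. For HSPA9, 5.65% occurred in the pseudogene HSPA9P1, and for DNAJC19, 6.45% in the pseudogene DNAJC19P9. GRPEL1 shared 0 of 4171 words with any other gene.

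Values are normalized counts, which are reads divided by 1 size factor per library. Libraries held 19838682 to 31192630 reads, and the share of reads on protein-coding genes ran from 26.3% in knockout 1 to 50.8% in control 3. The 3 rows that the authors mark as the knocked-out element had lower mean values in the knockout clone, with log2 differences of -5.49, -2.51 and -0.68, the first 2 past the threshold (limma adjusted p = 0.00018 and 0.016) and the third not (0.44). Markers of pluripotent cells were high in both clones: 8 of them (POU5F1, NANOG, SOX2, LIN28A, DPPA4, TDGF1, SALL4 and L1TD1) together reached 32862 to 70715 normalized counts per control library and 29787 to 44663 per knockout library. Log2 differences of these pluripotency markers ran from -0.92 (TDGF1, limma adjusted p = 0.39) to 0.01 (DPPA4), and all but DPPA4 were below 0. The 8 markers of differentiated cells summed to 487 to 1015 and 344 to 609, most of it COL1A1, a fibrillar collagen. COL1A1 had a log2 difference of -0.78 (limma adjusted p = 0.42). TBXT, SOX17, GATA4, GATA6 and CDX2 never exceeded 4.25 in a library. AFP measured 67.3 ± 55.7 in the control and 32.6 ± 16.0 in the knockout clone, with 145 in control 3. PAX6 had a higher mean in the knockout clone, at 4.47 ± 1.58 and 10.1 ± 5.28, with 17.7 in knockout 5. It overlapped between the clones and did not pass the filter on low values. In bulk RNA, fewer cells that express a gene and less of its RNA per cell cannot be told apart.

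DNAJC15 was nearly absent from the control clone and present in every passage of the knockout clone. Control libraries 1 to 4 held 0, 1, 0 and 2 reads of it, which is 0, 1.55, 0 and 1.81 normalized counts. Knockout libraries 1 to 5 held 121, 101, 119, 147 and 109 reads, or 115.9, 113.9, 138.6, 109.9 and 80.3 normalized counts. The groups did not overlap, and the lowest knockout library stood 44.5 times above the highest control library.

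The mean of the control clone was 0.840 ± 0.975 normalized counts (SD, n = 4) and that of the knockout clone 112 ± 20.8 (SD, n = 5), a log2 difference of 6.09 (SE 0.41) on the log2(value + 1) scale. With only 3 reads over the 4 control libraries, the ratio of the clones is loosely fixed: 597 reads over the knockout libraries against 3 gave a ratio of 137, with an exact 95% interval from 46.8 to 669 that covers counting error only. The authors' deposited table gives a log2 fold change of 7.13 (SE 0.87) and marks the gene as significant and among the top changed. Over all 27777 rows tested, 0.115% were called higher in the knockout clone, 0.54% were called in either direction, and the clones' libraries did not overlap for 3.95%; since the contrast chose DNAJC15, nothing is read from these shares for it.

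Within the knockout clone the coefficient of variation of DNAJC15 over passages was 18.6% with the authors' size factors. Scaled to protein-coding reads in place of the authors' size factors, the 5 knockout libraries lay between 91.2 and 134 and the control libraries between 0 and 2.17. Knockout 3 was the highest and knockout 5 the lowest with the authors' size factors, while knockout 1 was the highest and knockout 5 the lowest on the protein-coding scale.

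**Figure D1:**
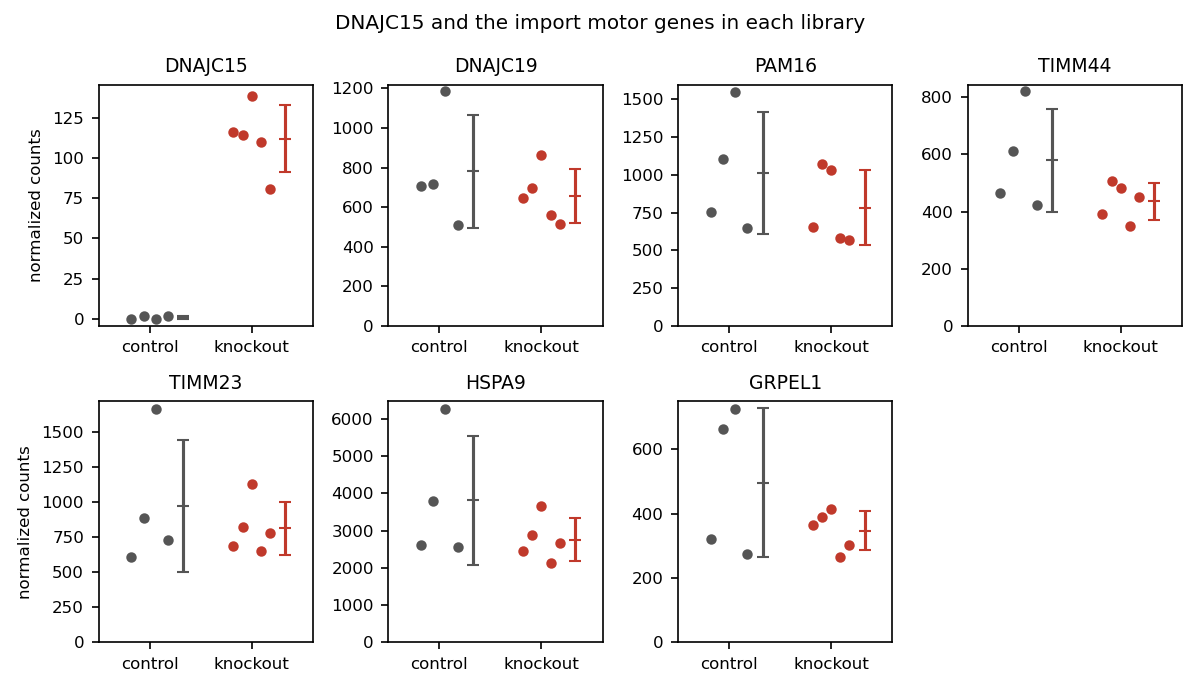
Normalized counts (y axis, linear, 1 scale per gene) of the 7 genes in the control clone (grey, 4 libraries) and the knockout clone (red, 5 libraries). Points are libraries in replicate order, bars show mean ± SD. DNAJC15 separates the clones, between 0 and 1.81 in control and between 80.3 and 139 in knockout libraries, while the other 6 genes overlap and have their highest value in control 3.

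DNAJC19, the paralogue, was expressed in both clones. It measured 709, 716, 1185 and 511 normalized counts in control 1 to 4 and 648, 696, 863, 560 and 515 in knockout 1 to 5. The groups overlapped, and control 3 alone stood above all other libraries. The means of 780 ± 286 (SD, n = 4) and 656 ± 136 (SD, n = 5) gave a log2 difference of -0.21 (95% interval -0.76 to 0.34, limma adjusted p = 0.83). A fall or a rise within that interval is compatible with these libraries, and the interval is not a limit of detection. On the protein-coding scale the means were 691 ± 61.9 and 690 ± 66.6 and the log2 difference was 0.00 to 2 decimals (-0.0024).

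Per kilobase of the longest annotated coding transcript, DNAJC15 stayed far below its paralogue even where it was present. In the knockout clone DNAJC15 reached 14.2 ± 2.65 normalized counts per kilobase and DNAJC19 451 ± 93.2 (SD, n = 5). The ratio per library ran from 2.89% to 3.63%, with a mean of 3.17% ± 0.306 (SD, n = 5). This ratio depends on the length taken for DNAJC15, whose coding transcript is annotated at 7853 bases and whose other annotated transcript, a non-coding one, at 924 bases, against 1454 bases for DNAJC19. Which ends these cells use was not measured.

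The structural and tethering parts of the motor did not pass the test. PAM16, which holds the J-domain protein at the channel, measured 757, 1103, 1546 and 649 normalized counts in control 1 to 4 and 652, 1070, 1029, 583 and 569 in knockout 1 to 5. The ranges of the clones overlapped, with control 3 the highest (log2 difference -0.35, 95% interval -1.02 to 0.33, limma adjusted p = 0.80). TIMM44, the tether of HSPA9, measured 464, 611, 820 and 423 in control and 393, 506, 483, 348 and 450 in knockout libraries. Here control 2 and control 3 stood above every knockout library and the other controls did not (-0.37, interval -0.85 to 0.10, limma adjusted p = 0.69).

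TIMM23, the channel-forming subunit, measured 610, 884, 1664 and 733 normalized counts in control 1 to 4 and 686, 821, 1128, 651 and 782 in knockout 1 to 5. The lowest value of all 9 libraries was a control (control 1) and so was the highest (control 3), and the log2 difference was -0.17 (interval -0.82 to 0.47, limma adjusted p = 0.88). Its near-identical copy TIMM23B, with which it can share reads, measured 158 ± 21.1 and 177 ± 17.8 (log2 difference 0.16, limma adjusted p = 0.80), and the readthrough TIMM23B-AGAP6 70.7 ± 27.5 and 93.6 ± 9.58 (0.47, limma adjusted p = 0.66).

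HSPA9, the motor's HSP70, measured 2617, 3788, 6263 and 2563 normalized counts in control 1 to 4 and 2459, 2873, 3667, 2138 and 2659 in knockout 1 to 5. The clones overlapped, and the value of control 3 was 6263 where the next highest library, control 2, had 3788 (log2 difference -0.39, interval -1.01 to 0.24, limma adjusted p = 0.77). GRPEL1, the nucleotide exchange factor of HSPA9, measured 321, 663, 726 and 274 in control and 364, 389, 416, 266 and 304 in knockout libraries. Control 2 and control 3 were again above all knockout libraries (-0.40, interval -1.09 to 0.29, limma adjusted p = 0.78).

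Of the 6 motor genes other than DNAJC15, 0 were called by limma, against 0.54% of all rows tested, and 0 had an unadjusted limma p under 0.05, against 8.63%. By direction limma called 0.115% of rows higher and 0.425% lower. edgeR and DESeq2 also called 0 of the 6, against 0.544% (0.112% higher, 0.432% lower) and 2.51% (0.622% higher, 1.89% lower) of the rows each adjusted. A fit that blocks on replicate number called 0 of the 6, against 0.155% (0.0504% higher, 0.104% lower). All 6 log2 differences were below 0, with a median of -0.36, where 49% of all rows and 63.4% of protein-coding rows were below 0 and their median was -0.09. The size of the differences moved with control 3, the library with the largest protein-coding share, in which each of the 6 was highest. Without control 3 the median was -0.12, against 0.02 for protein-coding rows. Of the 6, 4 were still below 0, and DNAJC19 (0.017) and TIMM23 (0.12) lay above 0. With libraries scaled to their protein-coding reads the median was -0.16 and TIMM23 stood at 0.029, a scaling that moved the median of all rows from 0.01 to 0.21 and that of protein-coding rows from -0.09 to 0.11. Between libraries of the same replicate number, PAM16, TIMM44 and HSPA9 were lower in the knockout clone in 4 of 4 pairs, and DNAJC19, TIMM23 and GRPEL1 in 3 of 4. The paired fit had smaller standard errors for the 6 genes and gave HSPA9 a log2 difference of -0.38 (SE 0.15, limma adjusted p = 0.43) and TIMM44 one of -0.39 (SE 0.14, limma adjusted p = 0.41). The part of the protein-coding share in these differences was not otherwise tested. On simulated data of the same size, 17% of genes changed 2-fold and 65% of those changed 4-fold were called.

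**Figure D2:**
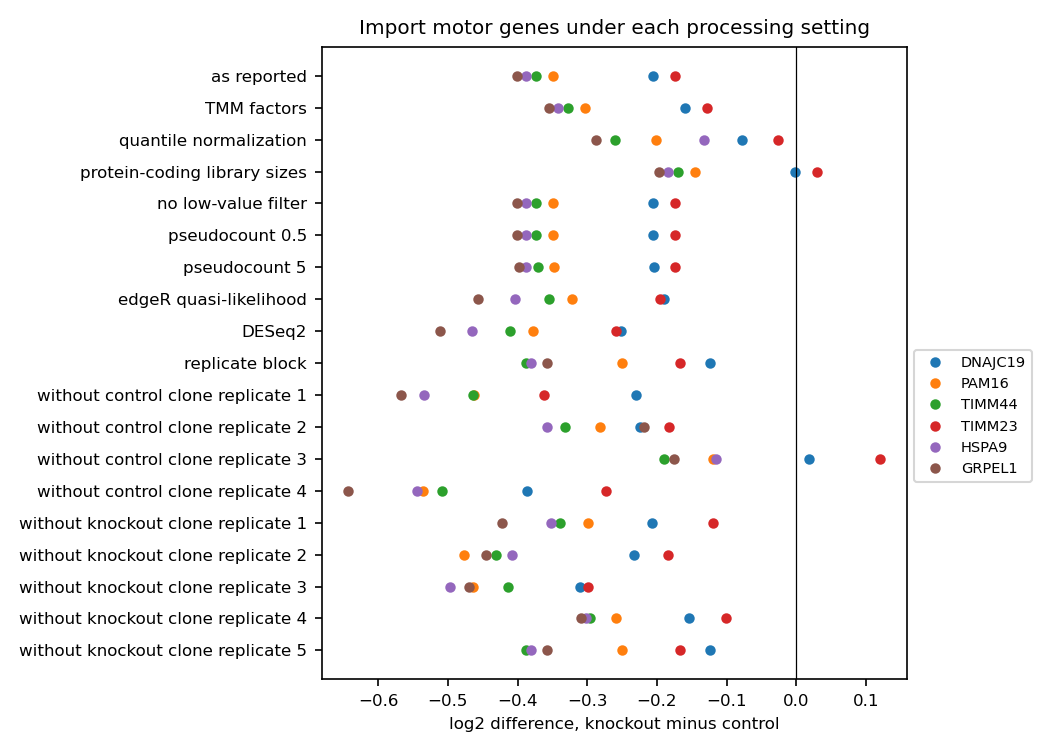
Log2 difference between the clones (x axis, knockout minus control) of the 6 motor genes other than DNAJC15, with 1 line per processing setting (y axis) and 1 colour per gene. The points lie below 0 in all settings shown except TIMM23 with protein-coding library sizes (0.029) and DNAJC19 (0.017) and TIMM23 (0.12) without control replicate 3.

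By level per kilobase of the longest coding transcript, the motor genes had a similar order in the clones. In the control clone PAM16 was highest at 1404 ± 560, followed by HSPA9 at 806 ± 366, TIMM23 at 796 ± 388, DNAJC19 at 537 ± 197, TIMM44 at 279 ± 86.6 and GRPEL1 at 179 ± 83.4 normalized counts per kilobase (SD, n = 4). In the knockout clone the order was PAM16 (1081 ± 343), TIMM23 (666 ± 155), HSPA9 (584 ± 122), DNAJC19 (451 ± 93.2), TIMM44 (210 ± 31.3), GRPEL1 (125 ± 22.2) and DNAJC15 (14.2 ± 2.65) (SD, n = 5). Across libraries the ranges of neighbours from PAM16 down to DNAJC19 overlapped in the knockout clone, and those from PAM16 down to GRPEL1 in the control clone. Within libraries and with these lengths the order was steadier: each step of the knockout order held in 5 of 5 libraries. In the control clone each step held in 4 of 4 libraries except that from HSPA9 to TIMM23, which held in 2 of 4. DNAJC15 was last in both clones, at 0.107 ± 0.124 in the control clone. The order depends on the length taken for each gene. HSPA9 was divided by 4727 bases, and another coding transcript of it is annotated at 2825 bases, which would raise its value. Which transcripts these cells use was not measured, so the place of HSPA9 beside TIMM23 is not fixed.

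Other genes of mitochondrial protein import were given by a list of 46, all of which passed the filter on low values. Of the 46, 0 were called higher and 0 lower by limma (0.54% of all rows), 0 by edgeR (0.544%) and 0 by DESeq2 (2.51%), and 1 had an unadjusted limma p under 0.05 (8.63%). That gene was TOMM7, a small subunit of the outer membrane TOM complex, with 5864, 3942, 6380 and 2514 normalized counts in control 1 to 4 and 2343, 2731, 3420, 1741 and 1915 in knockout 1 to 5. Control 4 lay within the knockout range and the other controls above it. The means were 4675 ± 1782 (SD, n = 4) and 2430 ± 674 (SD, n = 5), and the log2 difference was -0.90 (SE 0.30, limma adjusted p = 0.39). The next lowest was TIMM10, a small chaperone of the intermembrane space (-0.53, limma adjusted p = 0.72), and the highest were IMMP1L, a subunit of the inner membrane peptidase (0.20, limma adjusted p = 0.84), and MTX3, a metaxin (0.10, limma adjusted p = 0.90).

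The list had 43 values below 0 and 3 above, with a median of -0.24 against 0.01 over all rows and -0.09 over protein-coding rows. Medians were -0.31 for the 5 genes of the TIM23 channel (TIMM17A, TIMM17B, TIMM50, TIMM21 and ROMO1), -0.25 for 9 TOM genes, -0.31 for 9 genes of the TIM22 route and small TIMs, -0.26 for 6 matrix folding genes and -0.12 for 7 genes of presequence processing. GRPEL2, the other nucleotide exchange factor of the motor, stood at -0.39 (limma adjusted p = 0.68). Control 3 was the highest library for 41 of the 46 genes. Without it the list's median was -0.04 and that of protein-coding rows 0.02. On the protein-coding scale, where the median of protein-coding rows was 0.11, the list's median was -0.04. That scaling moved the median of the list and that of protein-coding rows by similar amounts. The list's median lay below the protein-coding median on both scales and without control 3, where the medians were closer together.

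**Figure D3:**
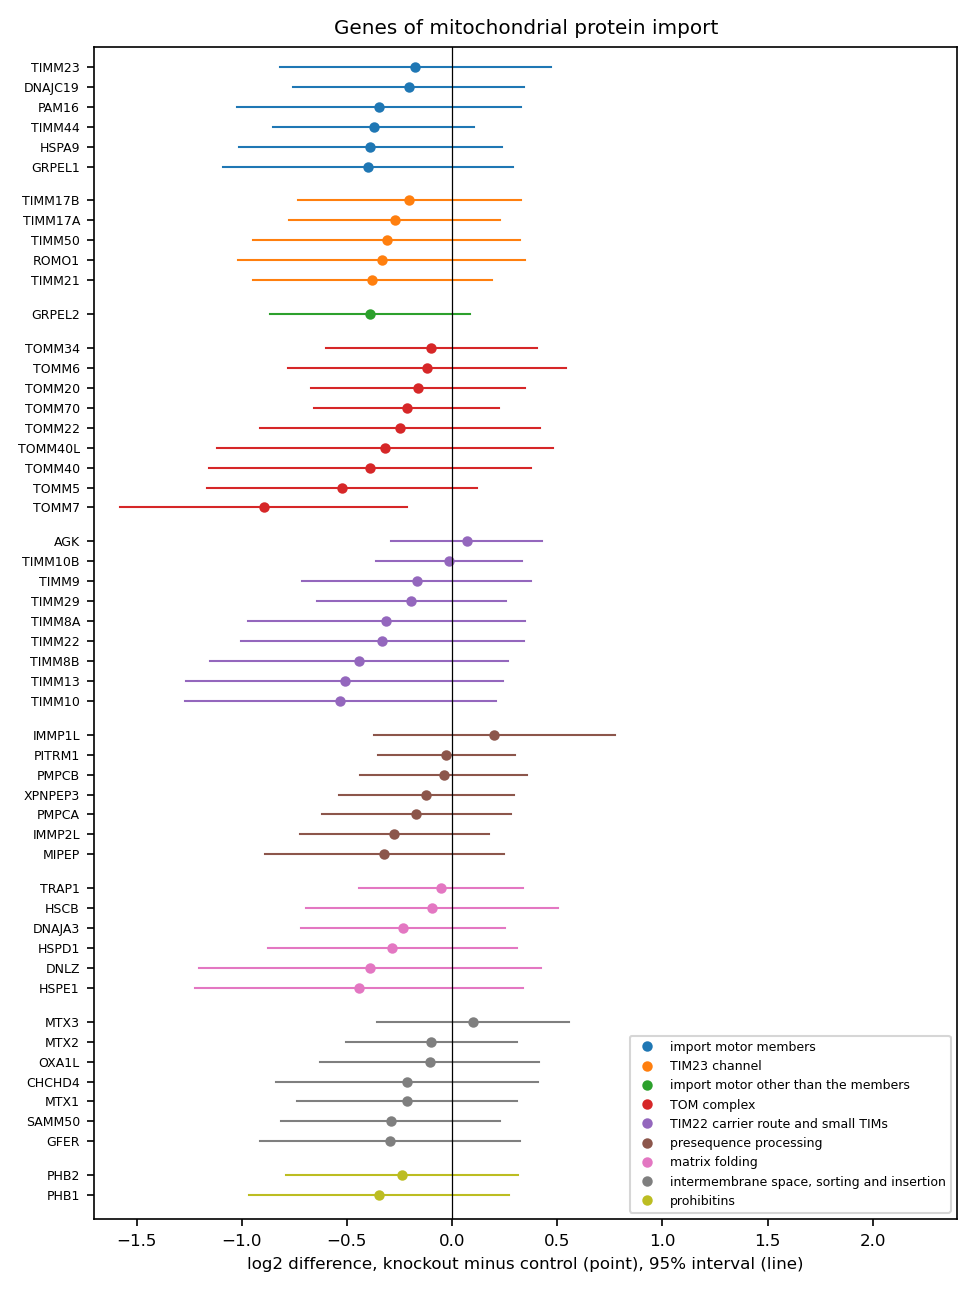
Log2 difference between the clones (x axis, knockout minus control) for the 6 motor genes other than DNAJC15 and the 46 other import genes, coloured by group. Points are estimates and lines are unadjusted 95% intervals from limma. All intervals but that of TOMM7 (-0.90) include 0, and 0 of the genes passed after adjustment.

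J-domain proteins of the same DNAJC naming series are given beside DNAJC15 as a description. DNAJC15 was chosen for its difference, so its place above them was set by that choice. Of 29 on the list, 26 passed the filter on low values, and DNAJC5B, DNAJC5G and DNAJC22 did not. Limma, edgeR and DESeq2 called 0 of the 26, against 0.54%, 0.544% and 2.51% of all rows, and 1 had an unadjusted limma p under 0.05, against 8.63%. This was DNAJC3, an HSP70 cochaperone of the endoplasmic reticulum, at 277 ± 58.0 and 177 ± 35.1 normalized counts (log2 difference -0.65, SE 0.21, limma adjusted p = 0.37). The highest were DNAJC6, which encodes auxilin, a clathrin uncoating factor (0.14, limma adjusted p = 0.84), and DNAJC9, a histone cochaperone (0.09, limma adjusted p = 0.91). The 26 lay between -0.65 and 0.14 with a median of -0.14, against -0.09 for protein-coding rows. On the protein-coding scale the medians were 0.060 and 0.11, and DNAJC15 itself stood at 6.14.

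The pseudogenes of the members ranged from 0 to 588 reads over all libraries. Of the 9 rows named DNAJC19P1 to DNAJC19P9, 4 had 0 reads in all 9 libraries, and DNAJC19P6 and DNAJC19P5 were the ones that passed the filter. DNAJC19P5 measured 62.2 ± 21.1 and 65.8 ± 17.2 normalized counts (log2 difference 0.10, limma adjusted p = 0.93). DNAJC19P6 ran from 0 in control 3 to 86.1 in control 1 and overlapped between the clones, with means of 39.5 ± 42.2 and 40.4 ± 23.9. Its log2 difference was 1.18 with limma (adjusted p = 0.82), 0.073 with edgeR and 0.032 with DESeq2, and -0.12 with limma without control 3. HSPA9P1 measured 6.86 ± 5.12 and 8.62 ± 4.92 (0.41, limma adjusted p = 0.88), and CORO7-PAM16 held 15 reads over all 9 libraries and was not tested.

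DNAJC15 was chosen for its difference, and 0 of the 14752 protein-coding rows tested had a larger rise. The tested genes on either side of DNAJC15 could therefore not exceed its rise, and their values are a description. EPSTI1, an interferon-inducible gene 30.9 kb before it on the opposite strand, measured 32.9, 68.4, 32.8 and 19.0 normalized counts in control 1 to 4 and 74.7, 56.4, 78.0, 16.4 and 11.1 in knockout 1 to 5. All control libraries lay within the knockout range (log2 difference 0.07, interval -1.35 to 1.49, limma adjusted p = 0.98). ENOX1, 99.3 kb after it, did not pass the filter, with 6.55 ± 4.15 and 7.47 ± 6.29.

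Of the 5 nearest protein-coding genes on each side, 6 were tested. Limma called 0 of them (0.54% of all rows), as did edgeR (0.544%) and DESeq2 (2.51%), so with 6 genes these counts do not set them apart from other rows. TNFSF11, which encodes the cytokine RANKL and lies 415 kb before DNAJC15, had the largest difference, from 42.1 ± 16.3 to 69.1 ± 10.2 normalized counts (log2 difference 0.76, SE 0.26, limma adjusted p = 0.39). DGKH (0.53), CCDC122 (0.16), LACC1 (0.07) and AKAP11 (0.01) had limma adjusted p-values from 0.67 to 0.98. All 6 limma differences lay above 0, where 63.4% of protein-coding rows lay below 0. FAM216B, RP11-65B7.2 and SMIM2 were under the filter in both clones. GENCODE 29 has 0 other genes that overlap DNAJC15.

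**Figure D4:**
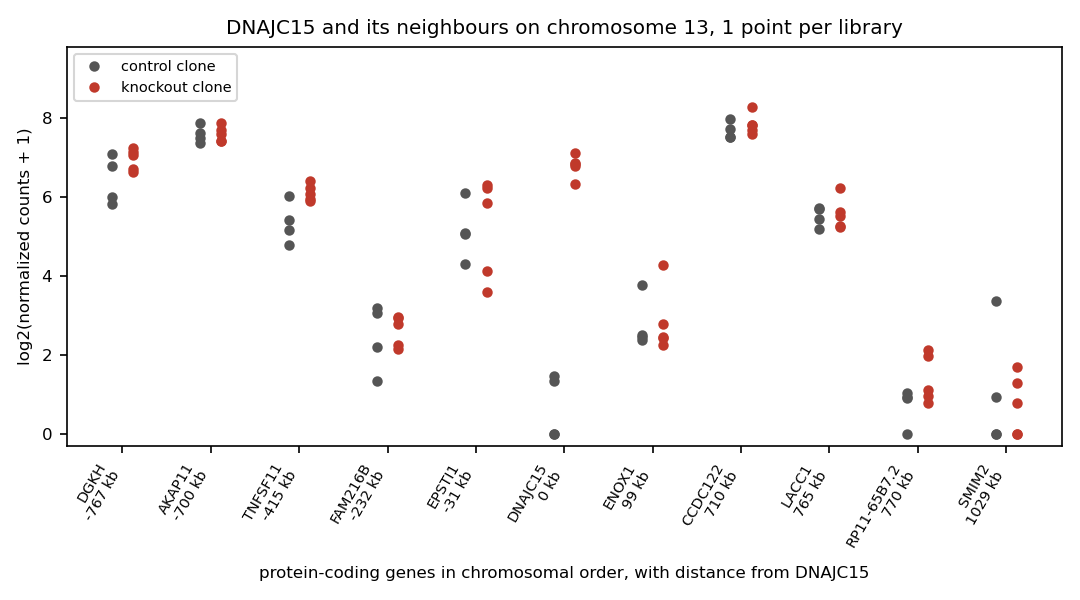
Log2(normalized counts + 1) (y axis) of DNAJC15 and the 5 nearest protein-coding genes on each side in chromosomal order (x axis, distance in kb between gene ends), with 1 point per library. The control (grey) and knockout (red) libraries separate for DNAJC15 and overlap for the other 10 genes.

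DNA methylation at the start of DNAJC15, which falls on the letters CG, was not measured here. In the RefSeq window of 300 bases around its start (chromosome 13, 43023336 to 43023635, GRCh38.p14), the letters CG occurred 24 times. The median over 35116 such windows was 14, and 33.9% of them held as many or more. GENCODE 29 places the start upstream of this window, which then lies in the first exon. Windows of the motor genes held 33 (PAM16), 27 (HSPA9), 26 (TIMM44), 26 (TIMM23) and 9 to 17 (DNAJC19, 3 windows). Nothing about methylation or expression is read from these counts.

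The rows with the profile most like that of DNAJC15 were found among 16016 rows with a symbol and a mean of at least 50 normalized counts. Likeness was the mean absolute difference, over 9 libraries, between log2(value + 1) profiles centred on their means, so it picks rows with the same contrast and is a description only. The closest was RP11-210N13.1, a transcribed pseudogene (chromosome 12, 43736628 to 43741067), with a mean difference of 0.56 and with 1.81 ± 3.61 normalized counts in the control and 134 ± 31.4 in the knockout clone. It lies within the span of the third closest, PUS7L (chromosome 12, 43718993 to 43758817), a pseudouridine synthase homologue (mean difference 0.92, 19.9 ± 10.5 and 353 ± 36.3), so these rows are neighbours and their reads may not be separable. The second was RNY4P24 (0.70), a Y RNA pseudogene also on chromosome 13, from 52400004 to 52400099, listed at 0 reads in every control library and at 180 ± 85.6 normalized counts in knockout libraries (SD, n = 5).

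The remaining rows were looser matches. RNU6-1280P, a U6 pseudogene (mean difference 1.24), was at 0 in control 1 to 3 but at 215 in control 4, above all knockout libraries. SNORA36B, a small nucleolar RNA (1.28), was at 0 in 3 control libraries and at 48.2 in control 2, within its knockout range of 24.9 to 217. Both belong to multicopy RNA families whose reads can be shared between copies, and so does RNY4P24 above. The knockout libraries of RNY4P24 ran from 89.7 to 320 normalized counts. PUS7L was the only protein-coding gene among the 5.

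**Figure D5:**
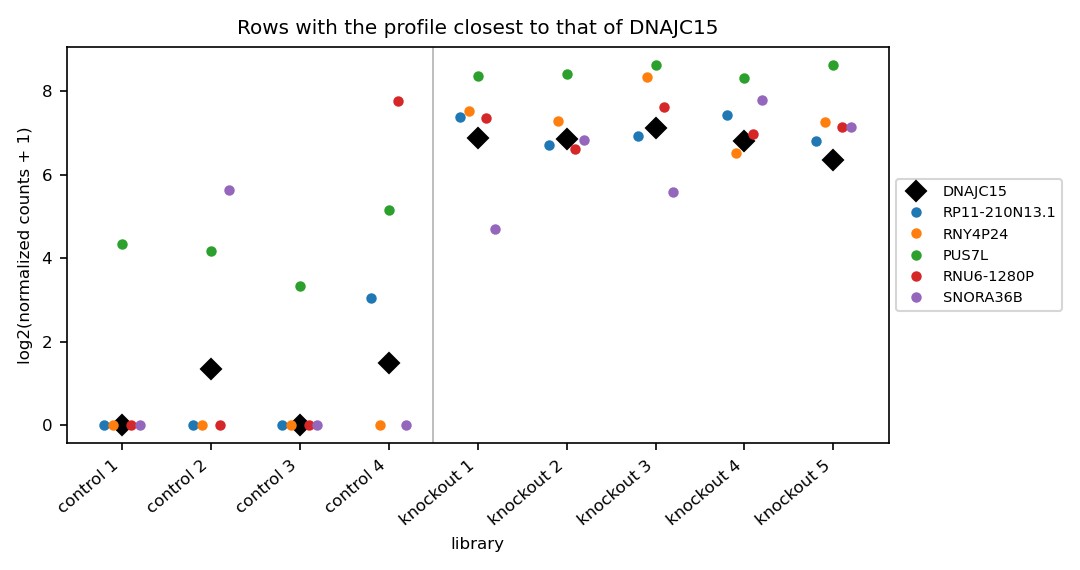
Log2(normalized counts + 1) (y axis) per library (x axis) of DNAJC15 (black diamonds) and the 5 rows with the closest centred profile (coloured points), control libraries left of the line and knockout libraries right of it. RP11-210N13.1, RNY4P24 and PUS7L separate the clones as DNAJC15 does, while RNU6-1280P (215 in control 4) and SNORA36B (48.2 in control 2) overlap. RNY4P24, RNU6-1280P and SNORA36B belong to multicopy RNA families.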

How the data were processed

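RNA came from a column kit with DNase treatment and a stranded total RNA library kit, per the labels' protocols. The submitters' processing notes name hg38 and the tools fastp, kallisto and DESeq2. The sources used here give no versions, annotation release or use of strand. The 9 signal columns of the deposited table hold gene counts divided by 1 size factor per library. Dividing each library by its lowest non-zero value gave whole reads for 100% of values (tolerance 1e-06). The log2 fold change, its standard error, the test score and the p-value in the table are the authors'.

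The members and gene lists were chosen with earlier results of these data known. In R 4.3.3, limma-trend (limma 3.58.1) was run on log2(value + 1) with clone as the only term, on the 27777 rows kept by edgeR's filterByExpr (minimum count 10). Adjustment was by Benjamini-Hochberg over those rows (threshold 0.05). The count test on recovered reads, edgeR's quasi-likelihood test (4.0.16), called 151 genes, and DESeq2 (1.42.0) was also run. Same-numbered libraries were taken as paired, since a batch tag in the labels carries the number. The correlations of paired deviations were 0.07, 0.02, 0.25 and 0.33 in replicate order. Between libraries of different numbers they ran from -0.29 (control 3 with knockout 4) to 0.21 (control 4 with knockout 5). For control 1 and control 2 the paired value was near the highest unpaired one, 0.04 with knockout 4 and 0.02 with knockout 1. The fit was tested on simulated data of 27777 rows.

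Genes named are the 7 members, their copies and readthroughs, the 2 largest rises and 2 largest falls of each list without calls, the 5 nearest protein-coding genes on each side of DNAJC15, and the 5 rows closest in profile. A gene that this rule names is not reported here. GENCODE 29 (GRCh38) gave positions and transcripts, with 58381 of 60829 rows found by Ensembl ID. Start windows came from RefSeq (GRCh38.p14), which held 6 of the 7 members; GRPEL1 was not found there. PHB1 was matched by its Ensembl ID to a row named PHB. Intervals on read ratios cover counting error only.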

Additional observations from a re-analysis of the deposited data

How the results depend on the processing

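The log2 difference of DNAJC15 was 6.09 and stayed above 0 in all alternatives run. As the control clone has 3 reads, its size follows the pseudocount and the tool: 6.73 with a pseudocount of 0.5, 4.32 with 5, 6.95 with edgeR and 7.13 with DESeq2. It ran from 5.85 to 6.34 with 1 library left out. In the paired fit, with a replicate block, it was 6.20; knockout 5 has no partner and adds nothing there, and the block changed no call among the members or lists. The counts of called motor, import and DNAJC genes were 0 in all alternatives run. The median of the DNAJC list was -0.14 and came to 0.060 with protein-coding library sizes, which moved the median of protein-coding rows from -0.09 to 0.11. Over all rows the number called was 150 with limma, 805 with DESeq2, 43 with the block, and from 80 without knockout 4 to 184 without control 4.

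Of 448 fits of 25 named genes, 21 changed direction and 0 changed a call. TIMM23 was 0.029 with protein-coding library sizes. Quantile normalization gave -0.00059 for DNAJC19P5, -0.21 for HSPA9P1 and -0.076 for EPSTI1, and the block gave -0.0081 for AKAP11. With 1 library left out, the values ran from -0.39 to 0.017 for DNAJC19, -0.36 to 0.12 for TIMM23, -0.035 to 0.27 for DNAJC9, -0.12 to 2.03 for DNAJC19P6, -0.082 to 0.30 for DNAJC19P5, -0.21 to 0.48 for EPSTI1, -0.058 to 0.11 for AKAP11 and -0.098 to 0.15 for LACC1. The cause was not tested. Depth limits the control level of DNAJC15 and the rows under the filter.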
